A study of Mus musculus with 2 samples.

Results

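The genes described here are 10 markers by which macrophages are usually recognised: Cd68, Adgre1, C1qa, C1qb, C1qc, Csf1r, Lyz2, Mrc1, Apoe and Fcgr3. They were chosen by name, with earlier results of these data known. Every row of a deposited cluster marker table that holds such a name in any of its 11 clusters was taken. All 10 were found, among 18319 genes named in the table. The table came from single-cell RNA sequencing by inDrop, a method in which droplets pair a cell with a barcoded bead, of 2 mouse gastric tumors grown from injected dysplastic stem cells called DP-DSC. A cystic adenocarcinoma collected at 10 weeks and a tubular adenocarcinoma collected at 13 weeks gave 1 library each. Both hosts were female NuJ mice. Nude mice lack a normal thymus and most mature T cells but keep macrophages, neutrophils and NK cells. The labels call the cells tumor cells, yet the table also holds clusters marked by leukocyte, fibroblast and erythroid genes.

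For each cluster the authors' deposited table gives genes, a linear fold and a p-value, in order of p. Genes that the table gives for a cluster, all with a fold above 1.5, are here called listed, and those whose fold reaches 2 and whose deposited p does not exceed 0.05 are called raised. The cells against which a fold was taken are not written in the table. The columns name clusters but not tumors, so no value belongs to a tumor and none has an error across animals. The name of the deposited table mentions a number of cells each, without saying whether per tumor or per cluster. The number of cells behind each fold is therefore unknown, and so is the depth. Clusters were drawn from the same expression values, so a cluster against other cells is no test, and all values below are descriptions. Folds of different clusters may have different reference cells, each of which may include the other clusters. A gene that is not listed may still be expressed.

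Macrophages are phagocytes that arise from monocytes or from embryonic precursors and are kept alive by signals through the CSF1 receptor. They engulf dying cells and debris, digest them in lysosomes, sense antibody-coated particles through Fc receptors, and are a main source of the complement component C1q. In tumors they are often the most abundant leukocyte. No single gene marks them alone: monocytes, dendritic cells and neutrophils share several of these genes, and Lyz2 in particular is also strong in neutrophils.

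Sequences are shown where they may bear on what a value counts. Lyz2 has a neighbour, Lyz1, on chromosome 10. Lyz2 lies from 117277331 to 117282321 and Lyz1 from 117287797 to 117292868, both on the minus strand of GRCm38 (mm10), 5475 bases apart. Their coding sequences of 447 bases are 95.1% identical, with 22 mismatches. Their 3′ untranslated regions of 790 and 786 bases are 96.3% identical over 785 aligned bases, with 29 mismatches. Over the last 150 coding bases, positions 298 to 447 counted from the start codon, there are 2 mismatches, shown in capitals in the GENCODE M21 transcripts.
Lyz2: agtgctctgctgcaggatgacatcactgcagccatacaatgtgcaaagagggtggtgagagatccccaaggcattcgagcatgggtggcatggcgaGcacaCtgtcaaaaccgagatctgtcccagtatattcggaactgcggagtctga
Lyz1: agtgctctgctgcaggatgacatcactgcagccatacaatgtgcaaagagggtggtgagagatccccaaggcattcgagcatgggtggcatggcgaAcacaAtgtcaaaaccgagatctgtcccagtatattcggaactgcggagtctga
Short reads from such stretches can fit both genes. This coding stretch lies before the 3′ untranslated regions, and where reads fell along the transcripts is not known here. How they were counted is not given in the sources used here, which leaves the split between Lyz2 and Lyz1 uncertain.

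Promoters are shown for Cd68, the member of largest fold in cluster 4, and C1qb, the member of largest fold in cluster 8. The windows are the 250 bases before the gene start in RefSeq (GRCm38.p6), chr11:69666171-69666420 for Cd68 and chr4:136886201-136886450 for C1qb, both read on the minus strand, and neither touches a gene of GENCODE M21. Capitals mark GAGGAA, the purine-rich core to which the myeloid factor PU.1 and other ETS proteins bind, searched on both strands.
Cd68: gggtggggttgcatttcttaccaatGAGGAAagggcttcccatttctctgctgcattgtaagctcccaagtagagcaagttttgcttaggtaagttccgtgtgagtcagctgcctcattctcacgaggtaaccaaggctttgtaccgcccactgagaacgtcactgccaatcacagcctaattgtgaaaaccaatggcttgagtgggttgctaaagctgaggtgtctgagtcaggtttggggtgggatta
C1qb: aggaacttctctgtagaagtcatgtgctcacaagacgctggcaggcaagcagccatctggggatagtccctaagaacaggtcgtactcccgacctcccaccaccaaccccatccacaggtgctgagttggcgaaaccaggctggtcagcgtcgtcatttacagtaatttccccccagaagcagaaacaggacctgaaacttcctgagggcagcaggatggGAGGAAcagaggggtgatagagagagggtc
The match begins 225 bases before the start in Cd68 and 30 bases before it in C1qb. RefSeq windows were found for 7 of the 10 genes (Apoe, C1qb, C1qc, Cd68, Fcgr3, Lyz2 and Mrc1), and 6 of the 7 hold GAGGAA on either strand, against 23.1% of 27025 promoter windows of the same length. Lyz2 has no match in its window and Mrc1 has 3. The windows of C1qc, Fcgr3, Lyz2 and Mrc1 overlap their own gene in GENCODE M21, whose start differs from that of RefSeq, and the Fcgr3 window lies wholly inside it. The AP-1 motif TGANTCA, also searched on both strands, was found in 1 of the 7, Cd68, against 6.87% of all windows. The string TATAAA, searched in the same way, was found in 0 of the 7, against 13.0% of all windows. A match is a string of letters and was not tested as a binding site.

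The 10 genes were listed in 4 of the 11 clusters. Clusters 4, 8 and 10 each listed 10 of 10, and cluster 2 listed 4. The share of all named genes listed was 31.5% in cluster 4, 26.4% in cluster 8 and 18.9% in cluster 10, and it was 9.07% in cluster 2. Of the 10 genes 9 were raised in cluster 4, where 18.6% of all named genes were raised. All 10 were raised in cluster 8, where 6.36% of all genes were, and 6 in cluster 10, where 4.90% were. In cluster 2, 1 of 10 was raised, against 2.89% of all genes. The other 7 clusters listed none of the 10. Long lists were among them: clusters 9, 6, 3 and 11 listed 38.9%, 36.4%, 29.9% and 25.7% of all named genes, and clusters 5, 7 and 1 listed 20.6%, 12.1% and 6.34%.

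**Figure D1:**
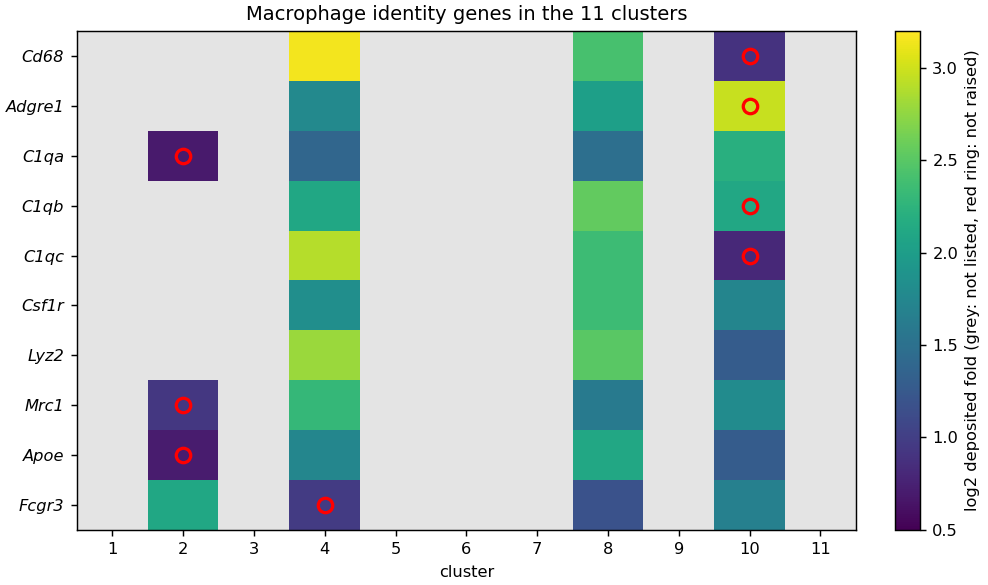
Heat map of the 10 macrophage identity genes (rows) in the 11 clusters (columns). Colour is the log2 of the deposited fold, grey means not listed and a red ring means listed but not raised; colour fills the columns of clusters 4, 8 and 10, reaches 4 genes in cluster 2 and is absent from the other 7.

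Across the listed members the median fold in the authors' deposited table was 3.93 for cluster 4, 4.73 for cluster 8 and 3.25 for cluster 10. The medians over all genes listed there were 2.76, 2.97 and 3.92. So the typical member lay above the typical listed gene in clusters 4 and 8 and below it in cluster 10. Member folds of the authors' deposited table were spread most in cluster 4, from 1.95 to 8.90, and least in cluster 8, from 2.27 to 5.88. In cluster 10 they ran from 1.76 to 7.84 in the authors' deposited table.

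The 3 complement chains form the collagen-stemmed C1q molecule, which recognises antibody complexes and dying cells and starts the classical pathway. Their genes sit side by side on chromosome 4 with no other annotated gene between them, C1qb from 136880129 to 136886187, C1qc from 136889804 to 136893065 and C1qa from 136895917 to 136898803, all on the minus strand. C1qa had folds of 2.63, 2.79 and 4.597 in clusters 4, 8 and 10 of the authors' deposited table and was raised in each. C1qb stood at 4.30, 5.88 and 4.36 in clusters 4, 8 and 10 of the authors' deposited table, and the last of these was not raised. C1qc was at 7.47, 5.10 and 1.76 in the authors' deposited table, and it too was raised in clusters 4 and 8 but not in cluster 10. The chains, which enter the protein in equal numbers, therefore did not keep the same order of fold: C1qc led in cluster 4, C1qb in cluster 8 and C1qa in cluster 10. From the authors' deposited table, the fold of C1qc was 2.84 times that of C1qa in cluster 4 and 1.83 times in cluster 8. In cluster 10 the order was turned, with C1qa at 2.62 times C1qc in the authors' deposited table. A fold depends on the level in the reference cells as well, which is not given, so these ratios do not compare transcript amounts.

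Of the 4 surface receptors, Csf1r, the receptor for CSF1 and IL-34 on which macrophage survival depends, had folds of 3.57, 5.12 and 3.30 in clusters 4, 8 and 10 of the authors' deposited table. It was raised in each, and it was the member closest to the median profile of the list, with a mean absolute difference of 0.03 on the log2 scale over the 11 clusters. Mrc1, the mannose receptor CD206 (chromosome 2, 14229392 to 14332057, plus strand), was at 4.93, 3.06 and 3.48 in the authors' deposited table and raised in each of these clusters. Adgre1, which encodes the adhesion receptor F4/80 (chromosome 17, 57358691 to 57483527, plus strand), had 3.42, 4.06 and 7.84 in clusters 4, 8 and 10 of the authors' deposited table. The 7.84 was the largest fold of any member in cluster 10, but its deposited p was above 0.05 and it was not raised. Adgre1 was also the member that stood lowest by p in cluster 8, in place 717 of 4844 in the authors' deposited table.

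Fcgr3, the activating Fc gamma receptor III (chromosome 1, 171051174 to 171064935, minus strand), differed most from the other members, at 0.33 from the median profile on the log2 scale. Its folds in the authors' deposited table were 1.95, 2.27 and 3.19 for clusters 4, 8 and 10, the smallest member value of clusters 4 and 8. In cluster 4 it missed the fold of 2 narrowly and was the only member not raised there, although it stood in place 43 of 5762 by p in the authors' deposited table. Its largest fold, 4.31 in the authors' deposited table, was in cluster 2. The coding sequence of Fcgr3 is 87.3% identical to that of its inhibitory relative Fcgr2b over 790 aligned bases, and 66.5% with gaps counted. Reads from shared stretches can be hard to assign, but the 3′ untranslated regions of this pair were not compared. Fcgr2b had folds of 2.01, 4.25 and 4.28 in clusters 2, 4 and 8 of the authors' deposited table, raised in each, and was not listed in cluster 10. Fcgr4 and Fcgr1, the other activating Fc gamma receptors, had folds of 4.56 and 8.88 in cluster 4 of the authors' deposited table and of 5.99 and 6.11 in its cluster 8, all raised. In cluster 10, Fcgr4 had 4.62 in the authors' deposited table without being raised and Fcgr1 was not listed.

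The remaining 3 members act inside lysosomes or are secreted. Cd68, a lysosomal membrane glycoprotein (chromosome 11, 69664213 to 69666153, minus strand), had the largest member fold of cluster 4, 8.90 in the authors' deposited table, then 5.33 in cluster 8 and 1.86 in cluster 10, where it was not raised. Lyz2, which encodes the lysozyme that cleaves bacterial cell walls, followed the same order with 6.95, 5.69 and 2.43 in the authors' deposited table and was raised in each. Lyz1 had a fold of 17.5 in cluster 4 of the authors' deposited table, where it was raised, 3.57 in cluster 8, where it was not, and was not listed in cluster 10. Apoe, which encodes apolipoprotein E, the lipid carrier of macrophages and other cells (chromosome 7, 19696109 to 19699188, minus strand), was at 3.34, 4.36 and 2.43 in clusters 4, 8 and 10 of the authors' deposited table, raised in each.

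**Figure D2:**
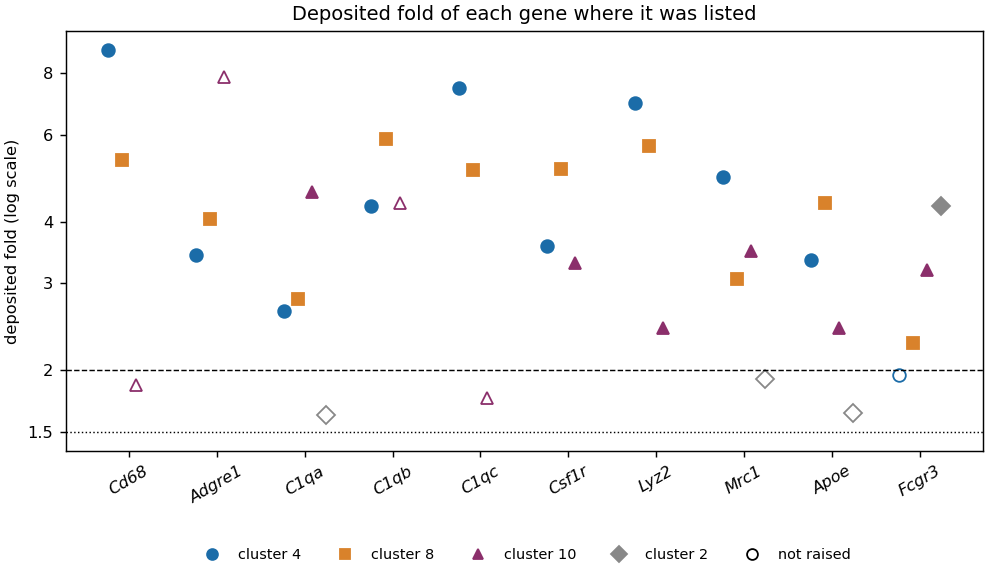
Deposited fold (log scale) of each of the 10 genes in each cluster that lists it; filled symbols are raised, open symbols are not, the dashed line is the fold of 2 and the dotted line the fold of 1.5. Cd68, C1qc and Lyz2 are highest in cluster 4 and lowest in cluster 10, Adgre1 and C1qa are highest in cluster 10, and Fcgr3 is highest in cluster 2.

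Set side by side, the largest fold in the authors' deposited table was in cluster 4 for 4 members (Cd68, C1qc, Lyz2 and Mrc1), in cluster 8 for 3 (C1qb, Csf1r and Apoe), in cluster 10 for 2 (Adgre1 and C1qa) and in cluster 2 for 1 (Fcgr3). Clusters 4 and 8 were close: from the authors' deposited table the ratio of the fold in cluster 4 to that in cluster 8 ran from 0.697 for Csf1r to 1.67 for Cd68, with a median of 0.902. Between clusters 4 and 10 the same ratio ran more widely in the authors' deposited table, from 0.436 for Adgre1 to 4.78 for Cd68. Of the 10 members 6 had a larger fold in cluster 4 than in cluster 10 and 6 a larger fold in cluster 8 than in cluster 10, in the authors' deposited table. The references of these folds are not given and may overlap between clusters, and with no replicate the differences have no test.

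In cluster 10 the 4 members that were not raised missed the rule in different ways. Adgre1 and C1qb had large folds with a deposited p above 0.05, C1qc had a deposited p under 0.05 with a fold under 2, and Cd68 missed on both. The 6 that were raised (C1qa, Csf1r, Lyz2, Mrc1, Apoe and Fcgr3) had folds from 2.43 to 4.597 in the authors' deposited table. The members that cluster 2 listed were Apoe at 1.64, C1qa at 1.62, Mrc1 at 1.92 and Fcgr3 at 4.31 in the authors' deposited table, and Fcgr3 was the member raised. The same cluster raised 3 of 4 named erythroid markers and 1 of 6 pan-leukocyte markers; their part in these values was not tested.

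By p the members stood far forward in clusters 4 and 8 and farther back in cluster 10. In cluster 4 they took places 4 (Lyz2) to 210 (C1qb) of 5762 by p in the authors' deposited table, and 6 of 10 were among the first 100. In cluster 8, Lyz2 was in place 1 and 9 of 10 members were among the first 86 of 4844 genes, all but Adgre1, in the authors' deposited table. For cluster 10 the first member, C1qa, was in place 193 of 3466 and the last, Cd68, in place 1947 in the authors' deposited table, and none was among the first 100. Ranked by size of fold instead, the median member lay at 31.6% of the way down the list of cluster 4, 28.0% in cluster 8 and 58.5% in cluster 10. Folds far above those of any member were common: the authors' deposited table has a largest fold of 76.7 for cluster 4, of 169.0 for cluster 8 and of 426.8 for cluster 10.

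**Figure D3:**
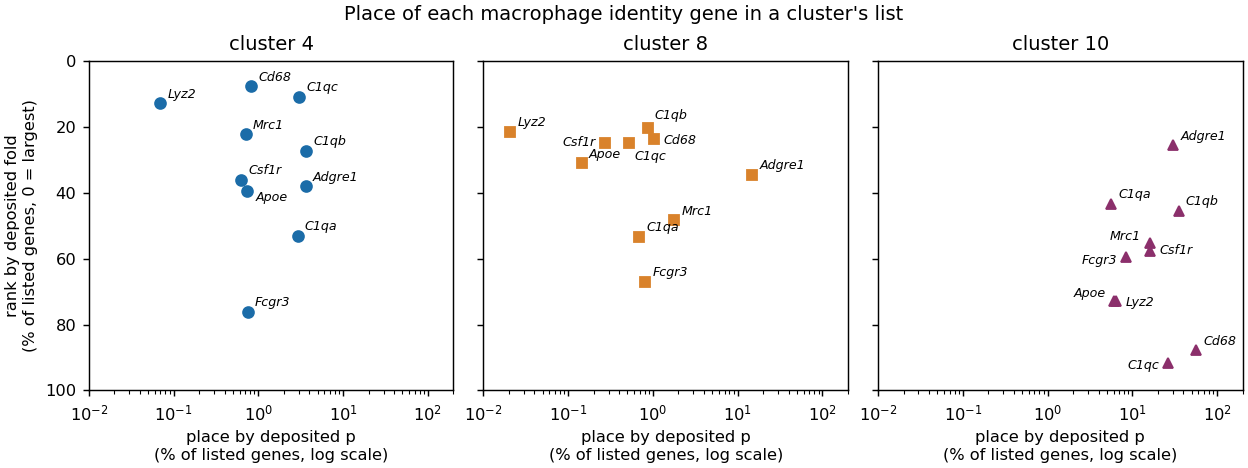
Place by deposited p (horizontal, percent of the genes listed in the cluster, log scale) against rank by deposited fold (vertical, percent, 0 is the largest fold) for the 10 genes in clusters 4, 8 and 10. Members lie mostly to the left in clusters 4 and 8, with Adgre1 farther right in cluster 8, and mostly farther right in cluster 10. They spread over a range of heights, without reaching the top.

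Related genes were counted in 7 lists of macrophage pathways and family relatives. Of all named genes 18.6%, 6.36% and 4.90% were raised in clusters 4, 8 and 10, and each count below stands against these shares. Fc receptor signalling genes, which carry the signal of Fcgr3 and its relatives, had 10 of 11 raised in cluster 4, 9 in cluster 8 and 5 in cluster 10. Fcer1g and Tyrobp, adaptors that hold the activating motif, had folds of 6.60 and 5.21 in cluster 4 of the authors' deposited table. The kinases and phospholipase Plcg2, Fgr and Lyn led cluster 8 of the authors' deposited table at 7.13, 6.98 and 6.93, and the kinases Syk and Fgr were raised in its cluster 10 at 6.89 and 5.52. Phagocytic and scavenger receptors had 11 of 13 raised in cluster 4, 7 in cluster 8 and 1 in cluster 10. These are 84.6%, 53.8% and 7.69% of the list, the last near the share of all genes. The modified-lipoprotein receptor Msr1, the apoptotic cell receptor Mertk and the fatty acid and lipoprotein receptor Cd36 were at 13.4, 11.4 and 11.4 in cluster 4 of the authors' deposited table. The haemoglobin scavenger Cd163, Cd36 and Msr1 reached 9.06, 6.68 and 6.14 in cluster 8 of the authors' deposited table. The beta-glucan receptor Clec7a was the gene of this list raised in cluster 10, at 3.25 in the authors' deposited table.

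Among CSF1 ligands and macrophage transcription factors 7 of 10 were raised in cluster 4, 5 in cluster 8 and 3 in cluster 10. Myeloid factors raised in cluster 4 of the authors' deposited table included Cebpa at 13.2 and Irf8 at 6.83. Those raised in cluster 8 of the authors' deposited table included Irf8 at 7.21 and Spi1, which encodes PU.1, at 5.83. Csf1, a ligand of Csf1r, had a fold of 34.0 in cluster 10 of the authors' deposited table, followed by Cebpb at 8.72 and Spi1 at 8.06. Csf1 was also raised in cluster 11, at 3.80 in the authors' deposited table, and was not listed in clusters 4 and 8. Il34, the other ligand, was listed in clusters 5, 6 and 9, at 9.37, 2.47 and 1.63 in the authors' deposited table, and raised in none. Csf1 in cluster 11 and Il34 are given after their values were seen.

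Complement genes other than C1q had 8 of 17 raised in cluster 4, 7 in cluster 8 and 3 in cluster 10. Properdin (Cfp), which stabilises the alternative pathway convertase, led cluster 4 at 9.29 in the authors' deposited table. The integrin chains Itgb2 and Itgam, which form complement receptor 3, were at 9.93 and 5.24 in cluster 8 of the authors' deposited table, and the C5a receptor C5ar1 was at 5.57 in its cluster 10. Cluster 11, where 17.0% of all genes were raised, also raised 8 of the 17, none of them a receptor or integrin chain. The proteases C1ra and C1s1, which bind to C1q to form the active C1 complex, had folds of 116.6 and 248.8 there in the authors' deposited table, and their inhibitor Serping1 had 402.3; these 3 were named after their values were seen. None of the 3 was listed in clusters 4, 8 or 10, and no C1q chain was listed in cluster 11, which raised 5 of 5 fibroblast markers.

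Lipid handling and lysosomal genes followed. Apolipoprotein and lipid handling genes, 11 of 13 of them listed in some cluster, had 8 of the 11 raised in cluster 4, against 4 in cluster 8 and 1 in cluster 10. The phospholipid transfer protein Pltp, the oxysterol receptor Nr1h3 and Apoc2, a neighbour of Apoe that activates lipoprotein lipase, were at 10.9, 6.58 and 4.96 in cluster 4 of the authors' deposited table. Apoc2 led cluster 8 at 8.19 in the authors' deposited table, before the acid lipase Lipa at 7.33 and the cholesterol carrier Npc2 at 4.13, and the cholesterol exporter Abcg1 was raised in cluster 10 at 2.76. Lysosomal genes had 10 of 13 raised in cluster 4, 8 in cluster 8 and 2 in cluster 10. Progranulin (Grn), cathepsin S (Ctss) and Hexa were at 6.03, 5.75 and 5.68 in cluster 4, and Psap and Ctsb at 3.10 and 2.84 in cluster 10, of the authors' deposited table.

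Family relatives of the members had 7 of 11 raised in cluster 4, 5 in cluster 8 and 0 in cluster 10. Fcgr1, Fcgr2b and Fcgr4, raised in clusters 4 and 8, also belong to the Fc receptor signalling list and were counted in both. The count in cluster 4 includes the Csf1r relatives Pdgfrb at 11.3 and Kit at 5.32 in the authors' deposited table, taken by family and not by cell type. Adgre4, an adhesion receptor related to Adgre1, had a fold of 39.1 in cluster 8 of the authors' deposited table and was listed in no other cluster. Flt3, a receptor kinase related to Csf1r and a dendritic cell marker, had 42.5 in cluster 8 of the authors' deposited table. Over the lists together, which name 83 genes that are not members, 58 were raised in cluster 4, where 18.6% of all named genes were, 42 in cluster 8, where 6.36% were, and 15 in cluster 10, where 4.90% were. The counts of the clusters are to be read against these unequal shares, also for each list above.

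**Figure D4:**
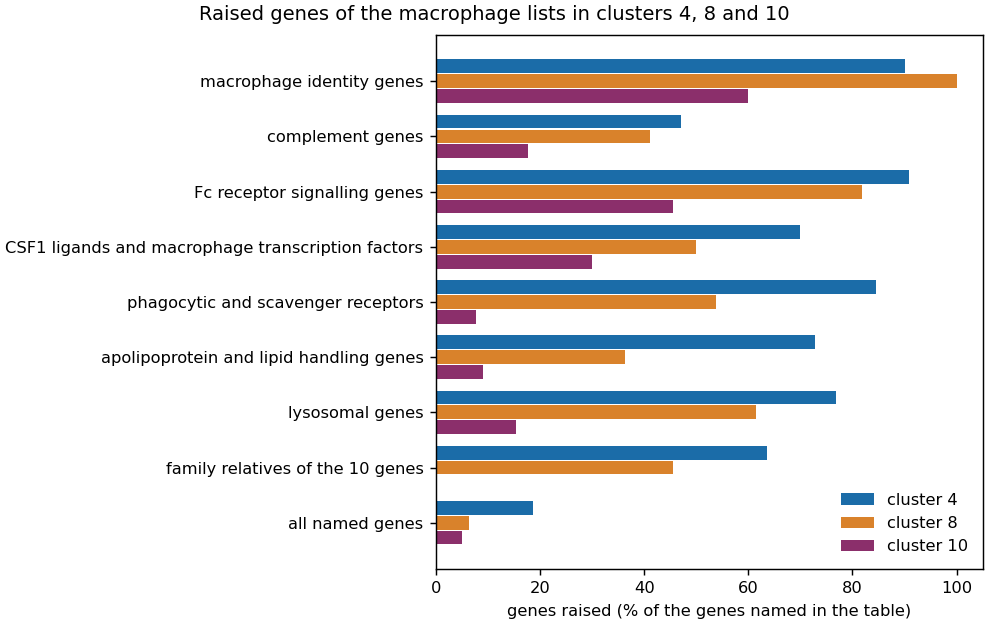
Percent of the named genes of each list that were raised in clusters 4, 8 and 10, with the macrophage identity genes at the top and all named genes at the bottom. Fc receptor genes come nearest to the macrophage identity genes in clusters 4 and 8, and bars of cluster 10 are shorter than those of clusters 4 and 8 for each list shown.

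Markers of some other leukocytes were raised in these clusters beside the macrophage genes, where 18.6%, 6.36% and 4.90% of all named genes were raised in clusters 4, 8 and 10. Counts are over markers that some cluster lists, which were 8 of 10 neutrophil, 7 of 9 T and NK and 6 of 8 mast cell markers. Pan-leukocyte markers had 4 of 6 raised in cluster 4, 5 in cluster 8 and 4 in cluster 10, with listed folds up to 5.21, 5.29 and 4.46 in the authors' deposited table. Monocyte markers had 5 of 7 raised in clusters 4 and 8 and 1 in cluster 10. The coagulation factor F13a1 led them in cluster 4 at 14.2 and the surface antigen Ly6c2 in cluster 8 at 13.1, in the authors' deposited table. Dendritic markers had 4 of 10 raised in cluster 4, 7 in cluster 8 and 4 in cluster 10, with listed folds from 2.01 to 10.9, from 1.53 to 74.6 and from 3.95 to 14.1 in the authors' deposited table. Neutrophil markers had 1 of 8 raised in clusters 4 and 8, Mmp8 at 2.18 and 10.8 in the authors' deposited table. That share of 12.5% is below the share of all genes in cluster 4 and rests on 1 gene in each. In cluster 10, 6 of 8 were raised, with listed folds from 3.39 to 117.8 in the authors' deposited table. T and NK markers had 0 of 7 listed in cluster 4, 2 raised in cluster 8 and 5 in cluster 10, where listed folds ran from 2.23 to 110.7 in the authors' deposited table. Mast cell markers had 1 of 6 raised in cluster 4 and in cluster 10 and 0 listed in cluster 8, and endothelial markers had 2 of 5 raised in cluster 10 and 0 in clusters 4 and 8. Epithelial and fibroblast markers were not listed in clusters 4, 8 or 10, and no B cell marker was named in the table. The part of these other cell types in the macrophage gene values was not tested.

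**Figure D5:**
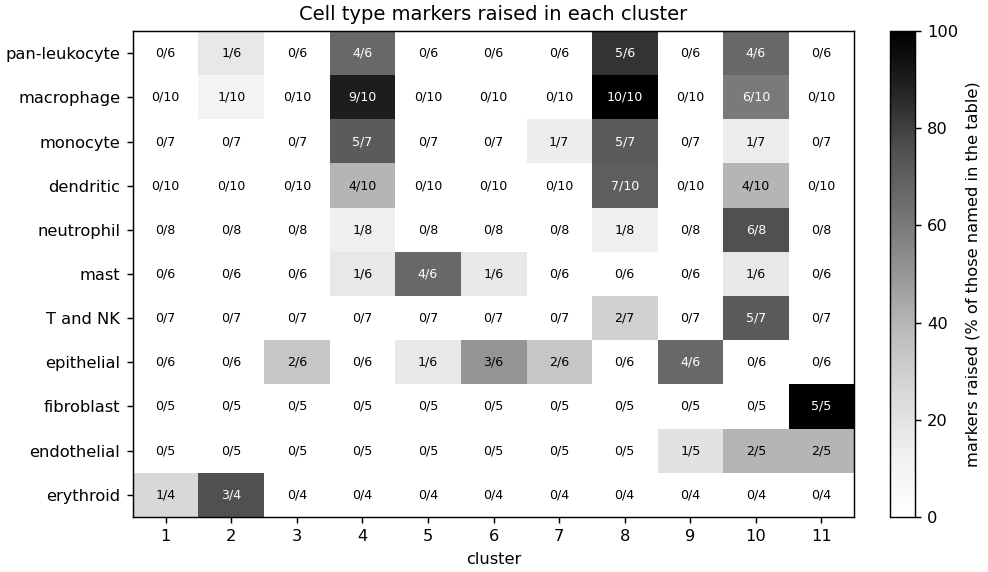
Markers of 11 cell types (rows) raised in each cluster (columns), as the number raised over the number named in the table; darker cells hold a larger percent. The macrophage row is filled in clusters 4 (9/10), 8 (10/10) and 10 (6/10). Other rows are filled beside it: pan-leukocyte (4/6) and monocyte (5/7) in cluster 4, and pan-leukocyte (5/6), monocyte (5/7) and dendritic (7/10) in cluster 8. In cluster 10 these are pan-leukocyte (4/6), neutrophil (6/8) and T and NK (5/7).

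In clusters 4 and 8 the share raised was larger for the macrophage genes, at 90% and 100%, than for any other list of leukocyte cell type markers counted; among the pathway lists, Fc receptor signalling genes had 90.9% in cluster 4. In cluster 10 it was 60%, below the 75% of named neutrophil markers, the 71.4% of named T and NK markers and the 66.7% of pan-leukocyte markers. Over the full lists, 6 of 10 neutrophil and 5 of 9 T and NK markers were raised there, against 6 of 10 macrophage genes. For neutrophil and T and NK markers the order in cluster 10 therefore depends on leaving out markers that no cluster lists. The percents come from 6 to 11 named genes per list and their differences were not tested. The members and lists were chosen with earlier results of these data known, so this order of lists is no independent support for a cell type.

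The 5 other genes whose profiles lay nearest to the median of the members, by the mean absolute difference of log2 fold over the 11 clusters among 11623 candidates, were Rtp4, Unc93b1, Samhd1, Stk4 and B2m. Each was listed in clusters 4, 8 and 10 and in no other. Unc93b1, which carries nucleic acid-sensing Toll-like receptors to endosomes, stood at 3.90, 5.40 and 3.05 in clusters 4, 8 and 10 of the authors' deposited table, raised in each. B2m, the light chain of MHC class I, was at 3.89, 4.04 and 3.61 in the authors' deposited table and raised in each. Samhd1, a nucleotide hydrolase, was at 3.94, 4.39 and 3.88 in the authors' deposited table and raised in clusters 4 and 8. The interferon-induced chaperone Rtp4, at 4.23, 4.69 and 3.23, and the kinase Stk4, at 3.36, 4.56 and 3.49, were raised in cluster 4 of the authors' deposited table and not in clusters 8 and 10. The likeness is one of deposited folds and does not weigh the p.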

How the data were processed

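Cells of 2 tumors, 1 library per tumor type as the labels give it, were captured by inDrop (1CellBio) and sequenced as TruDrop libraries, per the labels' protocols. The submitters' processing notes name mm10, STAR 2.7.3a, Partek and DESeq2 3.5 without roles. The authors deposited 1 table with a linear fold (a ratio) and a p-value per gene for each of 11 clusters, per the file headers; cell filters, doublet treatment, clustering and the test were not given in the sources used here. Because the test behind it is not given and each tumor type has 1 library, the deposited p was used to filter and order genes and is not printed. Depth is unknown.

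Computed here (Python 3.11.15, pandas 2.3.3, numpy 2.4.6) were counts, medians, ratios and ranks of deposited values. Genes not listed were set to the smallest deposited fold, 1.5, for the profile search, which was tested on simulated data. The members and lists were chosen with earlier results of these data known. Named genes were the members, the 3 raised genes of largest fold per list in clusters 4, 8 and 10, close paralogs and the 5 nearest profiles among genes listed in at least 2 clusters, leaving out ribosomal, mitochondrially encoded and predicted genes; some genes this rule takes are not reported here. The alternatives were other limits on fold and p, other medians, another order and other profile measures. Coordinates are GENCODE M21 (GRCm38), 1-based; 17925 of 18319 names matched. Of each gene with several RefSeq starts, the first window in the table was used.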

Additional observations from a re-analysis of the deposited data

How the results depend on the processing

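The number of members raised in clusters 4, 8 and 10 stayed within 1.5 times under each of 5 other limits on fold and p, from 8 to 10 in cluster 4, from 8 to 10 in cluster 8 and from 4 to 8 in cluster 10. In cluster 2 it was 4 in place of 1 when every listed fold counted. Clusters without a listed member had a count of 0 under all 5, which was fixed in advance because each limit counts listed genes only. Genes of the pathway lists raised in cluster 10 numbered 25 in place of 15 with no limit on p. The members' median fold in cluster 2 was 1.5 with members not listed at the smallest fold and 4.31 over raised members, and in cluster 4 it was 4.30 over raised members. Ordered by p in place of fold, 1 of the 3 leading members was shared in each of clusters 4, 8 and 10. Under Spearman correlation 62 candidates tied at the top, and 1 of the 5 nearest genes was among the 5 taken from the tie. Which 5 were taken was set by the order of names. Rtp4, Unc93b1, Samhd1 and B2m keep the order of folds of the median profile (cluster 8, then 4, then 10). They therefore belong to the tie, and Stk4 does not. All 5 nearest genes were shared with genes not listed set to a fold of 1, but that outcome was fixed in advance. The 5 are listed in exactly the clusters where the median profile is above the smallest fold. The change can therefore only leave other candidates in place or move them farther away. Causes of the other changes above were not tested. No paired analysis was possible because the table holds no samples and each tumor type has 1 library. Leaving out a library was not possible for the same reason. Depth per cluster is unknown, so a gene that is not listed cannot be told from one detected in too few cells.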
